A study of Mus musculus with 15 samples.

Results

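The genes described here are 9 genes that mark microglia and macrophages: Csf1r, Cx3cr1, P2ry12, C1qa, C1qb, C1qc, Tyrobp, Fcer1g and Aif1. They were taken by symbol from a table of 24264 genes, in which each has 1 row, and their levels were compared across 5 dissected regions of the embryonic mouse brain. The tissues were the ventral and the dorsal midbrain, alar plate, forebrain and hindbrain, with 3 RNA-seq libraries each at the embryonic stage E12.5. Per the labels, all tissue came from C57bl/6 mice that expressed green fluorescent protein from the promoter of tyrosine hydroxylase (Th), the enzyme that starts dopamine synthesis, and each library was made from 200 ng of RNA of tissue dissected under a microscope. No region is an untreated control. The labels give neither the part of the brain that the alar plate tissue came from nor whether the 3 libraries of a region are separate embryos, and p-values then reflect only the spread among these libraries, part of which may be technical. The labels describe no sorting by cell type. Fewer cells of a type and less RNA per cell cannot be told apart in such tissue.

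Microglia are the macrophages of the brain. They descend from yolk sac progenitors that enter the neural tube in the embryo, and at mid-gestation they are sparse, mobile and phagocytic. Csf1r signalling keeps them alive, Cx3cr1 and P2ry12 read signals from neurons and from damaged cells, C1q opens the classical complement cascade, and Tyrobp and Fcer1g carry the activating motif (ITAM) through which receptors without a signalling tail of their own act. Macrophages of the meninges and vessels share most of these genes and differ in others, such as Mrc1 and Lyve1.

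All 9 genes were weakly expressed. Their mean RPKM (reads per gene, scaled for gene length and library depth) lay between 0.663 for Aif1 and 4.06 for C1qb, which for the 8 tested genes is between percentile 7.35 and percentile 26.2 of the 13745 genes tested. Whole reads could be recovered from the RPKM values, and they give the depth behind each level. Csf1r had 80 to 214 reads per library, Cx3cr1 had 25 to 115 and P2ry12 had 12 to 58. C1qb had 30 to 85 reads, Tyrobp 6 to 32, Fcer1g 5 to 30 and Aif1 3 to 11. For a gene of median length 3 reads were worth 0.0791 to 0.12 RPKM, and no member was at 0 in any library.

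Recovered reads in gene models summed to between 8333289 and 12603372 per library. Alar plate 3 stood apart, with an RPKM sum of 489420 (374280 to 390992 in the 14 others). Its short genes read high: in 4 equal classes of gene length, the ratio of median RPKM between the shortest and the longest class was 2.57 in alar plate 3 and 0.985 to 1.12 elsewhere. Dorsal midbrain 3 and forebrain 1 also went apart from their regions in regional genes: Pax6 had 1.81, 0.194 and 44.9 RPKM in dorsal midbrain 1, 2 and 3, and Foxa2 had 0.137, 16.2 and 20.6 RPKM in forebrain 1, 2 and 3. Results were also computed without these 3 libraries. Th averaged 76.0 RPKM in ventral midbrain, Pax3 37.8 RPKM in dorsal midbrain and Otp 85.6 RPKM in hindbrain, in each case the highest mean of the 5 regions. Six3, a gene of the anterior forebrain and eye field, averaged 14.3 RPKM in forebrain and 16.1 RPKM in alar plate, against at most 1.85 RPKM in the other 3 regions.

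The C1q chains are encoded side by side on chromosome 4, in the order C1qb, C1qc, C1qa on the same strand with no coding gene between them, and the other 6 genes lie on 6 other chromosomes. Of the 9 genes 6 have an entry among RefSeq promoter windows of GRCm38.p6, and the 250 bases before the start are shown for 4 of these: C1qb and C1qc, whose levels moved together most closely, and Cx3cr1 and Fcer1g, which differed among regions. The files use another build (mm9), so the coordinates belong to GRCm38 alone. C1qb is at chr4:136886201-136886450, C1qc at chr4:136892915-136893164, Cx3cr1 at chr9:120068297-120068546 and Fcer1g at chr1:171234350-171234599, all on the minus strand and written 5′ to 3′ in the direction of transcription. Capitals mark GAGGAA, the purine-rich box to which the macrophage factor PU.1 binds, and GGAAGT, a sequence that ETS factors can bind. Both were marked on either strand, so that GAGGAA can read TTCCTC and GGAAGT can read ACTTCC.
C1qb: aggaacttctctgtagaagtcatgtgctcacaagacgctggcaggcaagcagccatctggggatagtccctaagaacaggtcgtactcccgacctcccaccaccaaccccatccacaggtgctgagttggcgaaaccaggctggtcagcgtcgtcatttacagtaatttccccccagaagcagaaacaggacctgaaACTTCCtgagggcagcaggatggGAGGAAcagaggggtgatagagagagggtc
C1qc: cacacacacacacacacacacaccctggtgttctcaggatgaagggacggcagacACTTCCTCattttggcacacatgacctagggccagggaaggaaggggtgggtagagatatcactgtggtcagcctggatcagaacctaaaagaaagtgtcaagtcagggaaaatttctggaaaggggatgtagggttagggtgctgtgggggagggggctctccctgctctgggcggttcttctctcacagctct
Cx3cr1: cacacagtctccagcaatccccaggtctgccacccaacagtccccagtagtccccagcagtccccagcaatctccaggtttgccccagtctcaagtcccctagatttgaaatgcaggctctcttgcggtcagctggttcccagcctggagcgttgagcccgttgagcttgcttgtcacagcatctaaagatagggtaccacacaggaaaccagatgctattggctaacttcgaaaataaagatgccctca
Fcer1g: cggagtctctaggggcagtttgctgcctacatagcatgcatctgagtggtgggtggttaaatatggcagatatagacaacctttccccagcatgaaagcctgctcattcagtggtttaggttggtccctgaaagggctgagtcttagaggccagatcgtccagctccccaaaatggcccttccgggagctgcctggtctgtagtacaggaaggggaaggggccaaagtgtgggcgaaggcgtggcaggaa
C1qb and C1qc each hold both motifs once, and in C1qc they overlap. Cx3cr1 and Fcer1g hold neither motif in this window, though the shorter GGAA occurs in both. Among the 6 members with an entry, GAGGAA was found in Aif1, C1qb and C1qc and GGAAGT in C1qb, C1qc and P2ry12, while 23.3% of all 32851 starts of the same length held GAGGAA and 19.7% held GGAAGT. The motifs can overlap each other, and a match describes letters, not binding.

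The comparison of all 5 regions asked whether any region differed. Fcer1g and Cx3cr1 differed among regions and the other 6 tested genes did not pass the test. Differences were tested with limma on log2(RPKM + 1) in a single fit of the 15 libraries, over the 13745 genes that had at least 1 RPKM in at least 3 libraries, with Benjamini-Hochberg adjustment over all of them and a threshold of 0.05. Aif1 reached 1 RPKM in 1 library only, so 8 members were tested. The moderated F test called 2 of these 8, or 25%, where it called 33.7% of all genes, so the members' share is no higher than the background. Fcer1g had an F of 9.13 (adjusted p = 0.00831) and Cx3cr1 an F of 4.88 (adjusted p = 0.041). The Cx3cr1 call was lost without any 1 of the ventral midbrain or forebrain libraries, without dorsal midbrain 1 or 2 and without hindbrain 1 or 2, with limma adjusted p between 0.0544 and 0.109. The adjusted p was 0.0946 for Csf1r, 0.0958 for Tyrobp, 0.133 for P2ry12, 0.155 for C1qc, 0.342 for C1qb and 0.635 for C1qa.

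**Figure D1:**
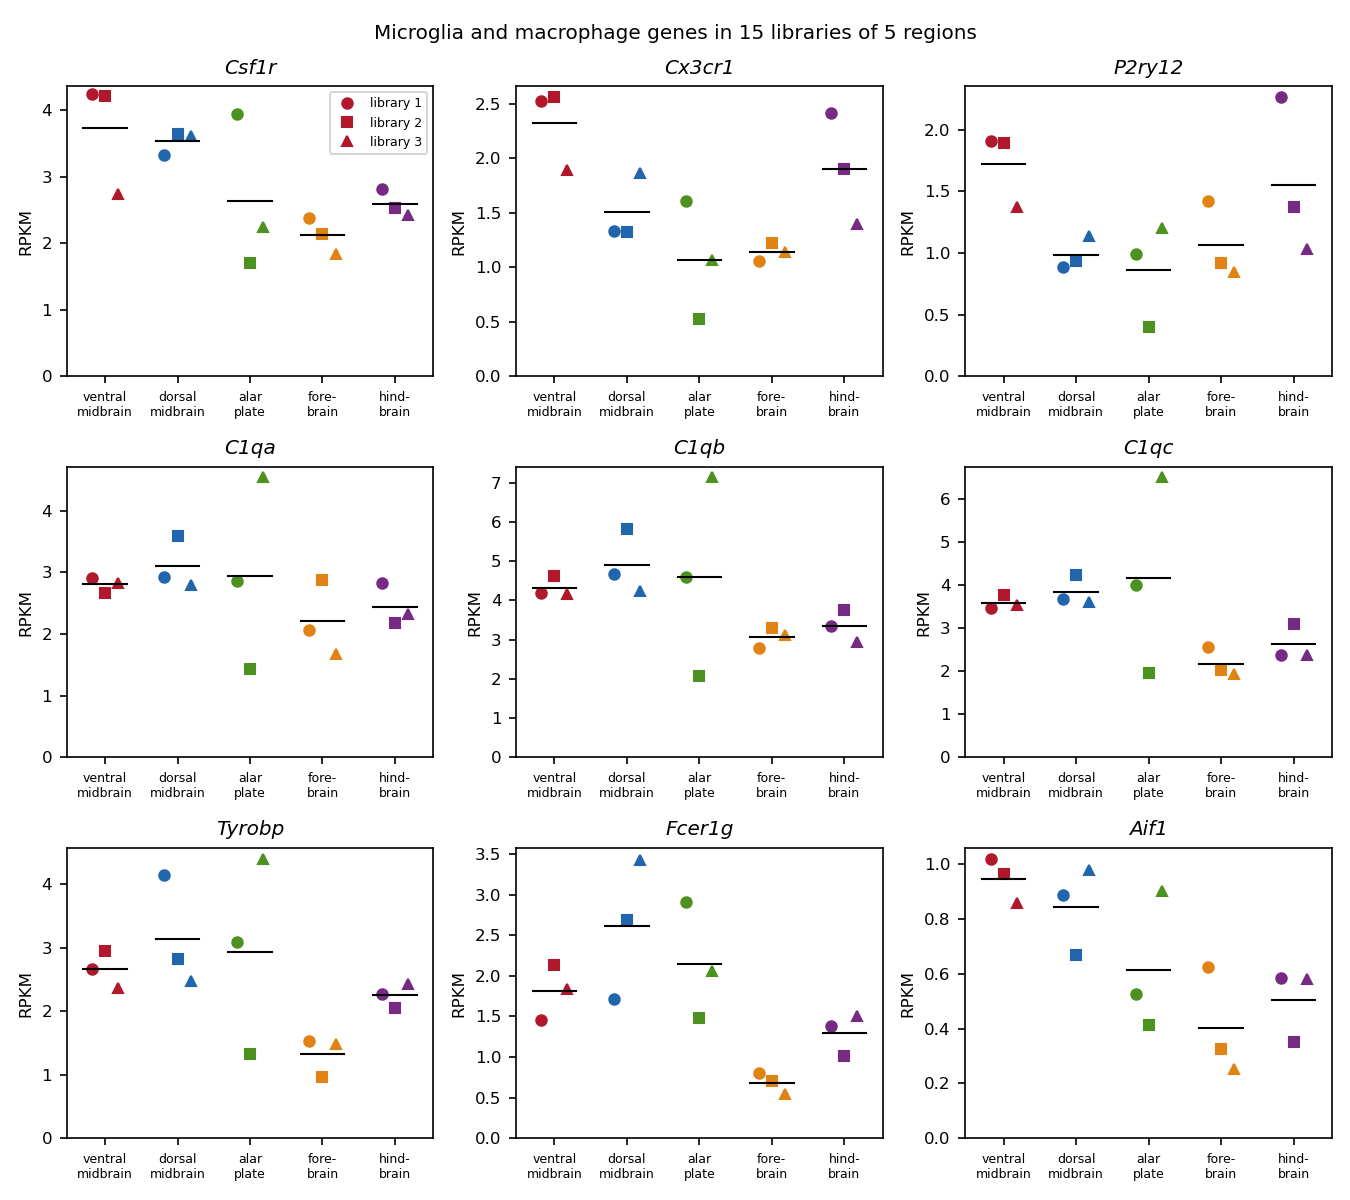
RPKM of the 9 genes (y axis, from 0) in each of the 15 libraries by region (x axis). Circles, squares and triangles are libraries 1, 2 and 3 of a region and the black line is their mean. Fcer1g is below 1 RPKM in the 3 forebrain libraries alone, and alar plate 2 is the lowest of the 15 libraries for Csf1r, Cx3cr1, P2ry12, C1qa and C1qb.

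Among the receptors, Csf1r, Cx3cr1 and P2ry12 all had their highest mean in ventral midbrain. Cx3cr1 is the receptor for fractalkine, a neuronal chemokine, and it had 2.52, 2.56 and 1.89 RPKM in ventral midbrain and 1.33, 1.32 and 1.86 in dorsal midbrain. In alar plate it had 1.61, 0.525 and 1.07 RPKM, in forebrain 1.06, 1.22 and 1.14, and in hindbrain 2.41, 1.90 and 1.40. The ventral midbrain libraries lay above all dorsal midbrain, alar plate and forebrain libraries and overlapped hindbrain. The means fell in the order ventral midbrain (2.32 ± 0.37 RPKM), hindbrain (1.90 ± 0.51), dorsal midbrain (1.5 ± 0.31), forebrain (1.14 ± 0.08) and alar plate (1.07 ± 0.54; SD, n = 3 each). Of the 10 pairs of regions, the test called Cx3cr1 in ventral midbrain against alar plate alone, with a log2 difference of 0.71 ± 0.19 (SE; limma adjusted p = 0.0246). That call was lost without ventral midbrain 1 (adjusted p = 0.0864), ventral midbrain 2 (0.0943) or alar plate 2 (0.0613). Against the mean of the other 4 regions, Cx3cr1 in ventral midbrain differed by 0.49 ± 0.15 (limma adjusted p = 0.0543).

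P2ry12 is a purine receptor that guides microglial processes to released nucleotides, and in adult brain it is a marker of resident microglia. It had 1.91, 1.89 and 1.37 RPKM in ventral midbrain, 0.886, 0.936 and 1.14 in dorsal midbrain and 0.994, 0.396 and 1.20 in alar plate. Forebrain had 1.42, 0.917 and 0.845 RPKM and hindbrain 2.26, 1.37 and 1.03. Ventral midbrain lay above dorsal midbrain and alar plate without overlap and overlapped forebrain and hindbrain, and the regions came in the order ventral midbrain, hindbrain, forebrain, dorsal midbrain and alar plate. Neither difference passed the test: it was 0.45 ± 0.20 against dorsal midbrain (limma adjusted p = 0.123) and 0.57 ± 0.20 against alar plate (limma adjusted p = 0.0767).

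Csf1r, the receptor for the macrophage growth factors Csf1 and Il34, had 4.24, 4.21 and 2.74 RPKM in ventral midbrain and 3.33, 3.65 and 3.62 in dorsal midbrain. Alar plate had 3.95, 1.70 and 2.24 RPKM, forebrain 2.38, 2.14 and 1.84, and hindbrain 2.82, 2.53 and 2.43. Every library of the ventral and the dorsal midbrain lay above every forebrain library. The difference from forebrain was 0.58 ± 0.19 for ventral midbrain (limma adjusted p = 0.0915) and 0.54 ± 0.19 for dorsal midbrain (adjusted p = 0.055). Both missed the threshold, but 7 of 25 alternatives called Csf1r higher in dorsal midbrain than in forebrain, with limma adjusted p between 0.0184 and 0.0496: without alar plate 1, 2 or 3, without ventral midbrain 3, with a replicate block, with the length trend subtracted and with only these regions in the fit. By the GENCODE annotation of GRCm38, Csf1r shares 873 exon bases with Hmgxb3 on the other strand. Hmgxb3 had 10.4 to 13.8 RPKM, and since strand use in the counting is not given in the sources used here, reads of these genes cannot be told apart over the shared bases. The other 8 members share no exon bases with another gene in the table.

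The ligands of these receptors were also measured. Cx3cl1, the ligand of Cx3cr1, averaged 2.90 ± 0.21 RPKM in alar plate, against 5.96 ± 0.99 in ventral midbrain, 6.18 ± 1.0 in dorsal midbrain, 6.07 ± 1.3 in forebrain and 6.06 ± 0.32 in hindbrain (SD, n = 3 each). It was lower in alar plate than in the mean of the other 4 regions by a log2 difference of -0.85 ± 0.12 (limma adjusted p = 0.00186). Csf1 averaged 1.91 RPKM in ventral midbrain and 2.07 in dorsal midbrain, against 1.29 in alar plate, 1.19 in forebrain and 1.5 in hindbrain (F test adjusted p = 0.116). Il34, the other ligand of Csf1r, averaged 0.176 RPKM over all libraries and was not tested, as were the P2ry12 relatives P2ry13 (0.343 RPKM) and P2ry6 (0.288 RPKM). Of the 6 genes on this list 3 were tested and 1, Cx3cl1, was called by the F test, beside 33.7% of all genes.

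The C1q chains had their highest means in dorsal midbrain or alar plate and their lowest in forebrain, but none passed any of the tests. C1qa, C1qb and C1qc are the A, B and C chains that assemble into the recognition molecule of the classical complement pathway. C1qb had 4.2, 4.63 and 4.16 RPKM in ventral midbrain, 4.68, 5.82 and 4.25 in dorsal midbrain and 4.61, 2.07 and 7.15 in alar plate. It had 2.80, 3.30 and 3.12 RPKM in forebrain and 3.35, 3.75 and 2.93 in hindbrain. All ventral and dorsal midbrain libraries of C1qb lay above all forebrain and hindbrain libraries, while alar plate spanned the whole range. C1qc had 3.46 to 3.77 RPKM in ventral midbrain, 3.60 to 4.24 in dorsal midbrain, 1.95 to 6.52 in alar plate, 1.93 to 2.56 in forebrain and 2.39 to 3.11 in hindbrain. C1qa had 2.67 to 2.91 RPKM in ventral midbrain, 2.79 to 3.59 in dorsal midbrain, 1.43 to 4.55 in alar plate, 1.67 to 2.88 in forebrain and 2.17 to 2.82 in hindbrain. The difference of C1qc between dorsal midbrain and forebrain was 0.61 ± 0.24 (limma adjusted p = 0.0786).

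Most listed partners and later steps of the cascade did not pass the filter. Of the 22 complement genes listed beside C1q, 21 are in the table and 9 were tested. The F test called 4 of the 9, beside 33.7% of all genes. Among those not tested were the C1q-associated protease gene C1ra, at a mean of 0.0772 RPKM, the cascade components C2 (0.212 RPKM), C3 (0.174 RPKM) and C4b (0.124 RPKM), and the C3 receptor subunits Itgam (0.368 RPKM) and Itgb2 (0.162 RPKM). C1s, the other such protease gene, was not tested either, and had 0.639 ± 0.15 RPKM in ventral midbrain and 0.852 ± 0.17 in hindbrain, against 0.0545 to 0.0984 in the other 3 regions. Among the called genes were regulators that hold the cascade back. Serping1, the C1 inhibitor, was lower in hindbrain than in the mean of the other 4 regions, with a log2 difference of -0.51 ± 0.12 (SE; limma adjusted p = 0.0229). Cd55 was lower in dorsal midbrain (-0.47, adjusted p = 0.0144) and Cr1l, a rodent regulator of C3, was higher there (0.53, adjusted p = 0.0077).

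Fcer1g, the gamma chain shared by activating Fc receptors, was higher in dorsal midbrain and lower in forebrain, and its region means differed by the largest ratio of the 9 genes. It had 1.71, 2.69 and 3.43 RPKM in dorsal midbrain, 2.91, 1.48 and 2.06 in alar plate and 1.46, 2.14 and 1.84 in ventral midbrain. It had 1.38, 1.01 and 1.5 RPKM in hindbrain and 0.805, 0.702 and 0.543 in forebrain. The 3 forebrain libraries lay below all 12 others, and dorsal midbrain lay above hindbrain without overlap. The means ran from dorsal midbrain (2.61 ± 0.86 RPKM) through alar plate (2.15 ± 0.71), ventral midbrain (1.81 ± 0.34) and hindbrain (1.30 ± 0.25) to forebrain (0.684 ± 0.13; SD, n = 3 each), a ratio of 3.82 between the ends.

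Against the mean of the other 4 regions, Fcer1g was higher in dorsal midbrain by a log2 difference of 0.56 ± 0.16 (SE; limma adjusted p = 0.017) and lower in forebrain by -0.78 ± 0.16 (adjusted p = 0.0187). It was the only one of the 8 tested members called in either comparison, where 32.0% of all genes were called for dorsal midbrain and 2.92% for forebrain. The dorsal midbrain call was lost without dorsal midbrain 2 (0.53, adjusted p = 0.089) and without dorsal midbrain 3 (0.40, adjusted p = 0.0876), and it was lost without dorsal midbrain 3, forebrain 1 and alar plate 3 together (0.41, adjusted p = 0.0614). The forebrain call was lost without forebrain 2 (adjusted p = 0.1) and without forebrain 3 (adjusted p = 0.112). With each library's trend of RPKM on gene length subtracted, the limma adjusted p was 0.0716 for dorsal midbrain, 0.0794 for forebrain and 0.0711 for the F test. Fcer1g and Tyrobp are among the shortest members, at 0.272 and 0.239 times the median gene length.

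Tyrobp, also named DAP12, is the adaptor of Trem2 and related receptors. It had 4.15, 2.82 and 2.47 RPKM in dorsal midbrain, 3.09, 1.33 and 4.40 in alar plate and 2.66, 2.95 and 2.37 in ventral midbrain. It had 2.28, 2.05 and 2.43 RPKM in hindbrain and 1.53, 0.959 and 1.48 in forebrain. Forebrain lay below dorsal midbrain, ventral midbrain and hindbrain without overlap, and alar plate 2 lay among the forebrain libraries. Tyrobp was higher in dorsal midbrain than in forebrain by 0.82 ± 0.25 (limma adjusted p = 0.028). That call was lost without dorsal midbrain 1 (adjusted p = 0.133), dorsal midbrain 2 (0.0729), forebrain 2 (0.113) or forebrain 3 (0.0701).

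Over the 10 pairs of regions, 5 of the 80 combinations of a member and a pair were called, or 6.25%, against 12.4% of all combinations of a gene and a pair. Besides Cx3cr1 in ventral midbrain against alar plate, a pair in which 14.2% of genes were called, they comprised Tyrobp in dorsal midbrain against forebrain (27.3% of genes called) and Fcer1g in 3 pairs. Fcer1g was higher in dorsal midbrain than in forebrain by 1.07 ± 0.20 (limma adjusted p = 0.00468), and this call was kept under all 25 alternatives tried, with adjusted p between 0.0029 and 0.035. It was higher in dorsal midbrain than in hindbrain by 0.63 ± 0.20 (adjusted p = 0.0275; 32.1% of genes called) and lost this call without dorsal midbrain 2 (0.0887), dorsal midbrain 3 (0.0897), hindbrain 2 (0.107) or hindbrain 3 (0.0517), and without dorsal midbrain 3, forebrain 1 and alar plate 3 together (0.0675). It was higher in ventral midbrain than in forebrain by 0.74 ± 0.20 (adjusted p = 0.034; 8.33% of genes called), and that call was lost without any 1 of the 6 libraries compared, with adjusted p between 0.0562 and 0.142. With replicate number as a block, the limma adjusted p of that pair was 0.0508, above the threshold. No member had 2 regions next to each other in its order of means that differed by the test.

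**Figure D2:**
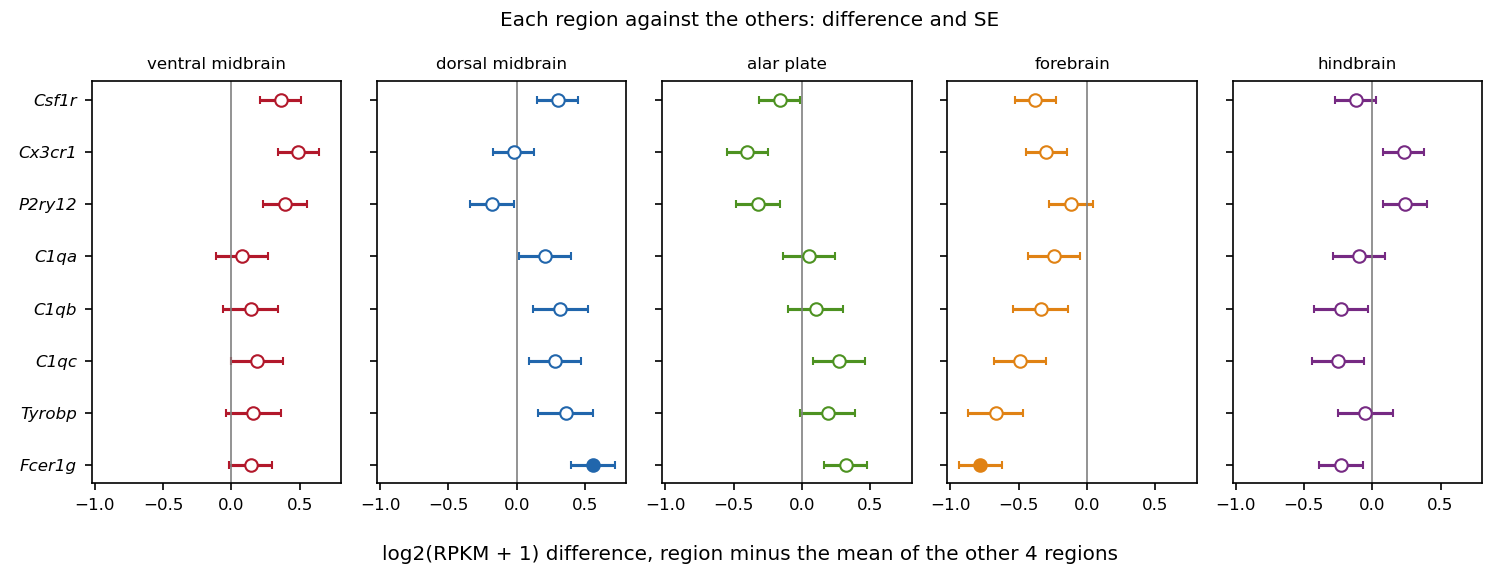
Log2(RPKM + 1) difference of each region from the mean of the other 4 (x axis) for the 8 tested genes (y axis), with the SE as bars; filled points have a limma adjusted p under 0.05. Fcer1g is called higher in dorsal midbrain (0.56) and lower in forebrain (-0.78), and all 8 differences are above 0 in ventral midbrain and below 0 in forebrain.

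By region, all 8 tested members had positive differences in ventral midbrain, with a median of 0.17 against -0.02 for all genes, yet limma called 0 of them where it called 10.6% of all genes. At an unadjusted p under 0.05 there were 3, where 23.1% of all genes had one, and the voom test on recovered reads called 1, Cx3cr1, and 10.7% of all genes. In dorsal midbrain 6 of 8 differences were positive, with a median of 0.29 against 0.05 for all genes. In forebrain all 8 were negative, with a median of -0.36 against -0.03 for all genes, and 4 had an unadjusted p under 0.05, where 20.4% of all genes had one. In alar plate limma and voom called 0 members and 1 had an unadjusted p under 0.05, where limma called 4.66% of all genes, voom called 3.68% and 29.0% had an unadjusted p under 0.05. In hindbrain limma and voom called 0, as many as at an unadjusted p under 0.05, where the shares of all genes were 6.3%, 6.62% and 25%.

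Aif1, which encodes the actin-binding protein Iba1 used to stain microglia, was the weakest of the 9 genes. It had 1.02, 0.962 and 0.858 RPKM in ventral midbrain, 0.886, 0.669 and 0.977 in dorsal midbrain and 0.527, 0.412 and 0.902 in alar plate. Forebrain had 0.626, 0.327 and 0.253 RPKM and hindbrain 0.585, 0.35 and 0.582. Both midbrain regions lay above forebrain and hindbrain without overlap. In a fit without a filter on low values, Aif1 differed among regions (limma F test adjusted p = 0.0458; 24.8% of 19912 genes called) and was higher than in forebrain by 0.48 ± 0.12 in ventral midbrain (adjusted p = 0.0363; 6.45% of genes called) and by 0.40 ± 0.12 in dorsal midbrain (adjusted p = 0.042; 18.5% called). These values rest on 12 reads in the 3 forebrain libraries together, against 29 in ventral midbrain and 29 in dorsal midbrain.

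The 3 alar plate libraries were far apart for most of the 9 genes. The summed RPKM of the 9 genes was 24.6, 11.3 and 30.1 in alar plate 1, 2 and 3, against 21.6 to 25.8 in ventral midbrain, 23.6 to 25.7 in dorsal midbrain, 12.8 to 15.2 in forebrain and 17.0 to 20.3 in hindbrain. Alar plate 2 was thus the lowest of the 15 libraries and alar plate 3 the highest. Alar plate 1 exceeded alar plate 2 by a ratio of 1.28 for Aif1 to 3.07 for Cx3cr1. The members differed in how alar plate 3 compared with these libraries. Alar plate 3 had 2.12 to 2.19 times the mean of alar plate 1 and 2 for the C1q chains, 2.0 times for Tyrobp, 1.92 for Aif1 and 1.73 for P2ry12, but 1.0 times for Cx3cr1, 0.940 for Fcer1g and 0.792 for Csf1r. Csf1r and Cx3cr1 have the longest gene models of the 9, at 1.43 and 1.38 times the median length, and the C1q chains have 0.415 to 0.425 times. Fcer1g, shorter still, did not follow this order. The part that the length trend of alar plate 3 had in these values was not tested.

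The ratio of the summed C1q chains to the summed receptors Csf1r, Cx3cr1 and P2ry12 was 4.04 in alar plate 3 and 1.14 to 2.31 in the other 14 libraries. The number of members called depended on the alar plate libraries. The F test called 2 members with all libraries, 3 without alar plate 1, 5 without alar plate 2 and 4 without alar plate 3, where the share of all genes called was 38.9% without alar plate 1, 37.9% without alar plate 2 and 56.7% without alar plate 3. Without alar plate 2 the added genes were C1qb, C1qc and Tyrobp, and without alar plate 3 they were C1qc and Tyrobp. Over the pairs of regions the 5 calls became 11, 16 and 12 without alar plate 1, 2 and 3, and 14.5%, 13.9% and 20.2% of all combinations of a gene and a pair were called. Without alar plate 3, dorsal midbrain was called higher for 4 members, C1qb, C1qc, Fcer1g and Tyrobp, in place of 1, with 53.3% of all genes called.

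**Figure D3:**
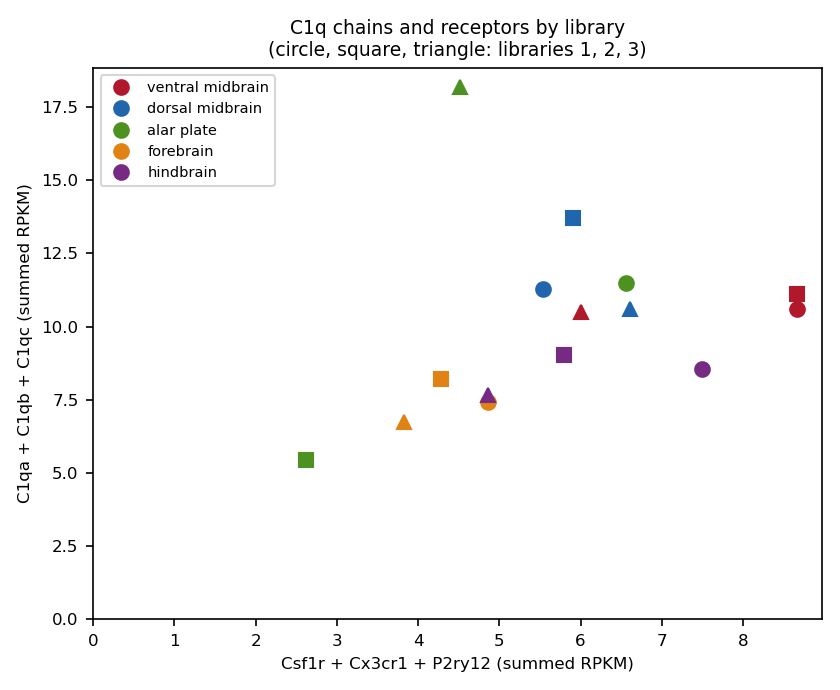
Summed RPKM of C1qa, C1qb and C1qc (y axis) against summed RPKM of Csf1r, Cx3cr1 and P2ry12 (x axis), 1 point per library, coloured by region. Alar plate 3 is the green triangle at the top, with a ratio of 4.04, and alar plate 2 the green square at the lower left, with 5.45 and 2.62 RPKM.

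Regions accounted for 77.6% of the sum of squares of log2(RPKM + 1) for Fcer1g, 65.3% for Cx3cr1, 55.5% for Csf1r, 53.6% for Tyrobp, 51.5% for P2ry12, 47.1% for C1qc, 33.8% for C1qb and 20.3% for C1qa. The median over the 8 members was 52.6%, and over all genes tested it was 55.5%, with quartiles of 38.1% and 70.4%. Fcer1g and Cx3cr1 were the members above the median of all genes, and the C1q chains were the lowest. No test was made of this order.

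Across the 15 libraries the 9 genes co-varied to different degrees. The median Pearson r over the 36 pairs of genes was 0.58 on the log2(RPKM + 1) scale, and 0.52 for deviations from the region means. The highest values were an r of 0.93 for C1qb and C1qc and 0.89 for C1qa and C1qb. C1qc and Tyrobp had an r of 0.86, but C1qa and Tyrobp 0.69. Cx3cr1 and P2ry12 had an r of 0.86 and Csf1r and Cx3cr1 0.72. Between receptors and the other genes r varied. It was lowest for P2ry12 and Fcer1g, at 0.02, and 0.25 for P2ry12 and C1qb and for Cx3cr1 and Fcer1g. Csf1r had an r of 0.55 with C1qb, 0.58 with Tyrobp and 0.66 with Fcer1g. For deviations from the region means, P2ry12 and C1qb had an r of 0.55 and P2ry12 and Fcer1g 0.41. Without alar plate 3 the median was 0.625, and r of Csf1r and C1qc was 0.89 in place of 0.53. Likewise r of Cx3cr1 with C1qa, C1qb and C1qc was 0.58, 0.56 and 0.52 in place of 0.32, 0.31 and 0.24. Other values fell without alar plate 3: r of C1qa and C1qc was 0.71 in place of 0.82. It was 0.58 in place of 0.69 for C1qa and Tyrobp, and 0.74 in place of 0.80 for C1qb and Tyrobp. The libraries share their depth and length trends, and libraries of a region share their tissue, so these values are descriptions.

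**Figure D4:**
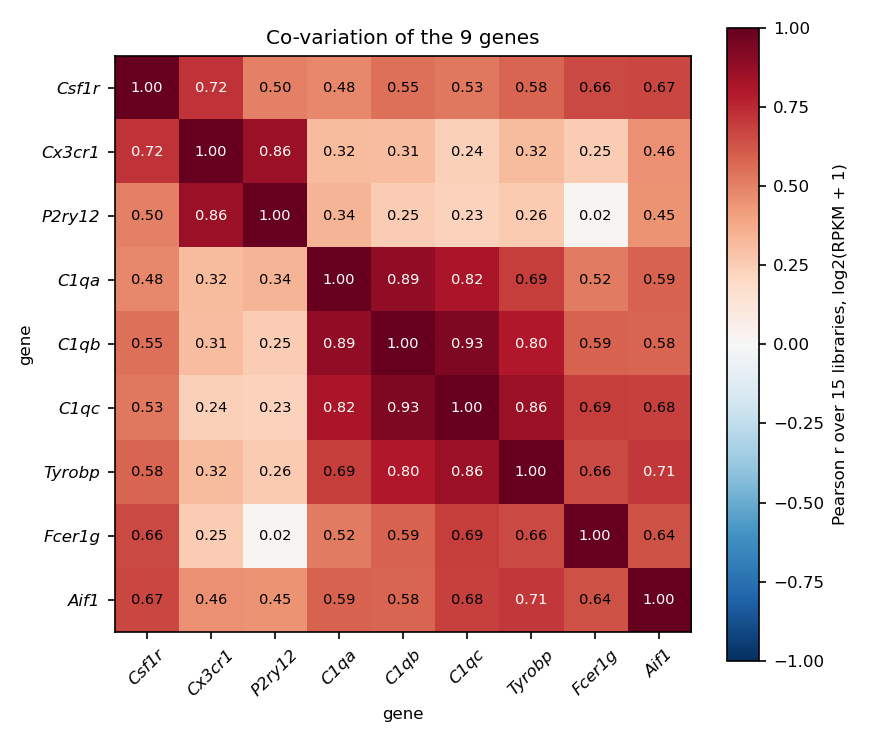
Pearson r of log2(RPKM + 1) over the 15 libraries for each pair of the 9 genes (both axes list genes, and the colour and the printed number give r). Cx3cr1 and P2ry12 form a block with r of 0.86, and C1qa, C1qb, C1qc and Tyrobp a block with r of 0.69 to 0.93.

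Other genes listed for resident microglia were mostly highest in ventral midbrain. Of 16 genes listed for homeostatic microglia, 8 were tested and 6 were called by the F test, beside 33.7% of all genes. In ventral midbrain 5 were higher and 0 lower, with a median difference of 0.48, where limma called 7.43% of all genes higher. In forebrain 3 were lower and 0 higher, with a median of -0.47, where 2.3% of all genes were called lower. In dorsal midbrain 2 were higher and 1 lower, where 18.2% of all genes were called higher and 13.8% lower. Olfml3, a secreted protein of microglia, averaged 5.79 ± 0.52 RPKM in ventral midbrain, against 1.22 in dorsal midbrain, 1.96 in alar plate, 1.10 in forebrain and 3.98 in hindbrain, and was higher in ventral midbrain by 1.25 ± 0.16 (limma adjusted p = 0.000139). Fcrls, a microglial Fc receptor-like gene of the mouse, had 2.99 ± 0.10 RPKM in ventral midbrain and 1.45 ± 0.26 in forebrain (SD, n = 3 each), and was called higher in ventral midbrain (0.41, adjusted p = 0.0234) and lower in forebrain (-0.48, adjusted p = 0.0274). Hpgds, a prostaglandin D synthase, averaged 3.41 ± 0.27 RPKM in ventral midbrain and was higher there by 1.02 ± 0.19 (adjusted p = 0.00278), and Sparc was higher there by 0.80 (adjusted p = 0.0095). Several genes of this list, among them Sparc, are also made by other cells of the embryonic brain. Siglech and Gpr34, which are more restricted to microglia, had means of 0.407 and 0.553 RPKM and were not tested.

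Of 35 genes listed for macrophages in general, 14 were tested and 6 were called by the F test, beside 33.7% of all genes. Mpeg1, a pore-forming protein of phagocytes, had 3.03 ± 0.20 RPKM in ventral midbrain, 1.95 ± 0.18 in dorsal midbrain, 1.29 ± 0.13 in alar plate, 1.77 ± 0.17 in forebrain and 2.59 ± 0.33 in hindbrain (SD, n = 3 each). It was higher in ventral midbrain by 0.49 ± 0.08 (limma adjusted p = 0.00169) and lower in alar plate by -0.53 ± 0.08 (adjusted p = 0.00365). In ventral midbrain 2 genes of this list were called higher and 0 lower, where limma called 7.43% of all genes higher. In dorsal midbrain 4 were higher and 1 lower, where 18.2% of all genes were called higher and 13.8% lower. Among the 4, Ctsc, a lysosomal protease, was higher in dorsal midbrain by 0.65 (limma adjusted p = 0.0124). The gene called lower there was Coro1a, which neurons also express (-0.37, adjusted p = 0.0322). Lyz2, the lysozyme of macrophages, was called by the F test (adjusted p = 0.0329) with its highest means in alar plate (1.90 RPKM) and dorsal midbrain (1.61 RPKM). Cd68, a lysosomal marker of phagocytes, averaged 2.13 to 2.85 RPKM in the 5 regions (F test adjusted p = 0.559).

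All 8 tested genes of the 16 listed for border macrophages were called by the F test, beside 33.7% of all genes. A gene high in dorsal midbrain alone can pass the filter through the 3 libraries of that region. Mrc1 reached 1 RPKM only in the dorsal midbrain libraries and in alar plate 1. Counts of called genes on this list are therefore not independent of the filter. In dorsal midbrain 6 were higher and 1 lower, with a median difference of 1.25, where limma called 18.2% of all genes higher and 13.8% lower. Mrc1, the mannose receptor of perivascular and meningeal macrophages, averaged 2.73 ± 0.24 RPKM in dorsal midbrain, against 0.175 in ventral midbrain, 0.197 in forebrain and 0.164 in hindbrain, and was higher in dorsal midbrain by 1.45 ± 0.28 (limma adjusted p = 0.00347). In alar plate 1, 2 and 3 Mrc1 had 3.81, 0.148 and 0.830 RPKM. F13a1 (1.5), Pf4 (1.41) and Lyve1 (1.10) were also higher in dorsal midbrain, as were Dab2 (1.58) and Stab1 (0.87), while Folr2 was higher in ventral midbrain (0.83, adjusted p = 0.00323). Cd36, which vessels also express, was lower in dorsal midbrain (-0.93) and higher in hindbrain (1.96, adjusted p = 9.21e-05). Cd163, Cbr2 and Cd209f of this list were near 0, at means of 0.00977, 0.0231 and 0.00539 RPKM.

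**Figure D5:**
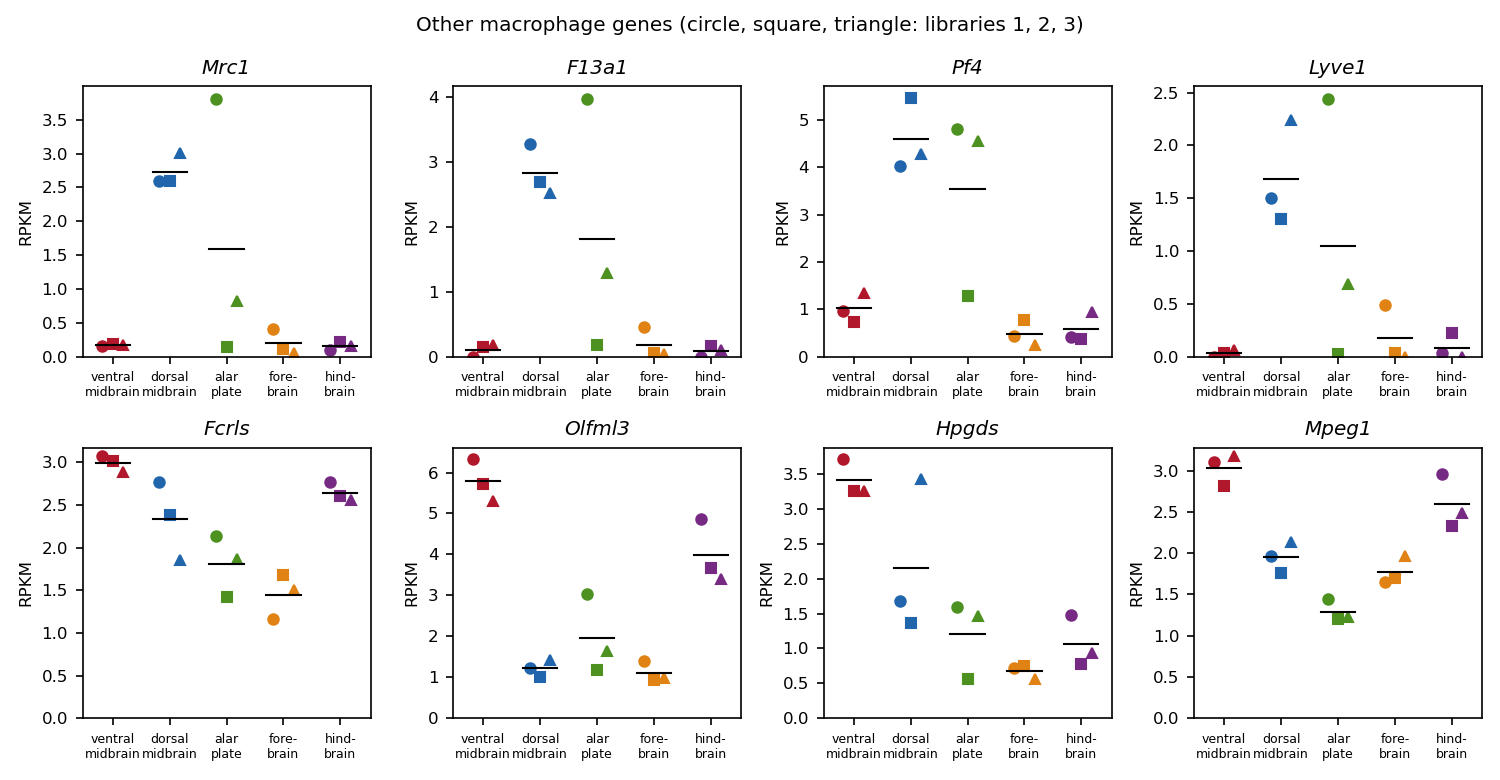
RPKM (y axis, from 0) of 4 border macrophage genes (Mrc1, F13a1, Pf4, Lyve1), 3 genes listed for microglia (Fcrls, Olfml3, Hpgds) and Mpeg1 in the 15 libraries by region (x axis), with the mean as a black line. The upper genes are high in dorsal midbrain and in alar plate 1, and the lower genes have their highest mean in ventral midbrain.

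The border macrophage and the meningeal genes both had their highest sums in alar plate 1, followed by the dorsal midbrain libraries. In ventral midbrain, forebrain and hindbrain their mean sums did not share an order, and no correlation between them was computed. The summed RPKM of the 16 border macrophage genes was 24.4 to 26.7 in dorsal midbrain and 33.6, 5.14 and 13.7 in alar plate 1, 2 and 3, against a mean of 10.8 ± 1.6 in ventral midbrain, 4.37 ± 1.4 in forebrain and 9.04 ± 2.5 in hindbrain (SD, n = 3 each). The 10 genes listed for meninges and mesenchyme summed to 69.3 to 130.0 RPKM in dorsal midbrain and 169.0, 9.32 and 55.2 in alar plate 1, 2 and 3, against 7.14 to 8.33 in ventral midbrain, 5.07 to 19.9 in forebrain and 4.76 to 9.48 in hindbrain. Of the 9 tested genes of that list 7 were higher in dorsal midbrain, against 18.2% of all genes. Genes of that list that are high in dorsal midbrain alone can pass the filter in the same way. Lum, a matrix proteoglycan of mesenchyme, averaged 9.09 RPKM in dorsal midbrain and was listed at 0 in ventral midbrain. The 13 endothelial genes summed to 74.1 to 104.0 RPKM in dorsal midbrain, 57.8 to 92.6 in alar plate and 76.2 to 82.8 in ventral midbrain. Their sums were 60.6 to 68.0 RPKM in forebrain and 64.8 to 72.0 in hindbrain. All 13 were tested, and 6 were higher in dorsal midbrain, again beside 18.2% of all genes. The F test called 3 of the 13 endothelial genes, or 23.1%, beside 33.7% of all genes. Within alar plate, Csf1r, Cx3cr1, Fcer1g and the border macrophage and meningeal sums were highest in library 1 and lowest in library 2, and the other 6 members were highest in library 3 and lowest in library 2. The part of meninges, vessels and border macrophages in the members' differences was not tested.

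The receptors that use the adaptors were at the edge of the table. Of 19 ITAM-related genes listed, 3 were tested and 0 were called by the limma F test, beside 33.7% of all genes. Fcgr3, an activating Fc receptor that signals through Fcer1g, missed the threshold there (adjusted p = 0.0818) but was called higher in dorsal midbrain, at 1.68 ± 0.26 RPKM, than in the mean of the other 4 regions, where its means were 0.64 to 1.03 RPKM (0.58 ± 0.17, limma adjusted p = 0.0198). Trem2, which signals through Tyrobp, averaged 1.28 ± 0.27 RPKM in ventral midbrain and 0.734 to 0.906 RPKM in the other 4 regions (F test adjusted p = 0.47). Lyn, a kinase that phosphorylates ITAMs, had means of 1.5 to 2.08 RPKM (F test adjusted p = 0.158), and Syk, the kinase that binds them, averaged 0.596 RPKM over the 15 libraries and was not tested.

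Of 12 myeloid transcription factors, 4 were tested and 2 were called by the F test, beside 33.7% of all genes. The macrophage factors PU.1, listed as Sfpi1, and Irf8 had means of 0.600 and 0.524 RPKM and did not pass the filter. Of the called factors, Ikzf1 was higher in hindbrain, at 3.72 ± 2.6 RPKM (SD, n = 3), than in the mean of the other 4 regions. The log2 difference was 1.52 ± 0.26 (SE; limma adjusted p = 0.00314). Ikzf1 had 6.74, 2.30 and 2.11 RPKM in hindbrain 1, 2 and 3. Outside hindbrain it reached 1 RPKM only in ventral midbrain 2 (1.67 RPKM). It thus passed the filter through the region where it is high, and its call is not independent of the filter. Sall1, a factor of microglia and of neural progenitors, averaged 23.9 RPKM in ventral midbrain and 9.98 RPKM in forebrain (F test adjusted p = 0.0685).

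The genes whose pattern over the 15 libraries was most like the mean z-score of the 9 members were Anxa5 (r = 0.94), Copz2 (0.93), Rcn3 (0.92), Lass2 (0.91), Pttg1ip (0.91), Tmem119 (0.90), Adpgk (0.90), Cd63 (0.89), 2010003O02Rik (0.89) and Ifitm2 (0.89). Tmem119 is a marker of resident microglia and Cd63 a late endosome membrane protein. Tmem119 averaged 0.939 ± 0.23 RPKM in ventral midbrain, 1.20 ± 0.10 in dorsal midbrain, 0.875 ± 0.57 in alar plate, 0.328 ± 0.16 in forebrain and 0.453 ± 0.025 in hindbrain. Of the 50 most like genes, 1 was on the homeostatic microglia list, 2 were on the phagolysosome list and 47 were on none of the lists. The libraries share depth, length trends and tissue, so likeness over 15 points says nothing of shared function.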

How the data were processed

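RNA-seq was made from 5 dissected regions with 3 libraries each. The authors deposited RPKM values for 24264 genes in 1 table with a column per library. Bowtie and the build mm9 are named per the submitters' processing notes; the annotation, the counting, any filter and strand use were not given in the sources used here. Libraries were made with an Illumina TruSeq kit, per the labels' protocols.

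RPKM values of a gene are multiples of the value of a single read. Comparing low values gave whole reads for 16595 of 16612 genes that were above 0 in 10 or more libraries (99.9%; tolerance 0.02 reads for small values, at most 0.15). These reads gave depth, gene length and a voom alternative, and cover counting error only. A floor of 3 reads was used for detection.

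Tests used limma 3.58.1 (R 4.3.3; Python 3.11.15 for the rest) with a variance trend on log2(RPKM + 1), a scale that understates changes of weak genes. All 5 regions entered a single fit of the 13745 genes with at least 1 RPKM in at least 3 libraries. A gene high in 1 region alone can pass this filter through that region. Counts of list genes called are thus not independent of the filter. A moderated F test, each region against the unweighted mean of the other 4, and the 10 pairs of regions were computed, two-sided, with Benjamini-Hochberg adjustment over all genes within a comparison and a threshold of 0.05. The code was tested on simulated data. The members, the lists and the tests were chosen with earlier results of these data known. All 9 members are named, and of each other list up to 4 genes with the smallest F test adjusted p, besides defining genes and the 10 genes most like the members; a few genes that this rule names are not reported here. Alternatives were pseudocounts of 0.1 and 0.5, no filter and a filter at 5 RPKM, median-ratio and quantile scaling, a subtracted length trend, voom on recovered reads, a replicate block, only the regions compared, and leaving out each library or 3 libraries that lie apart (dorsal midbrain 3, forebrain 1 and alar plate 3). Same-numbered libraries of ventral midbrain, forebrain and hindbrain deviated together over genes in all 9 pairs (r from 0.234 to 0.382). No label pairs libraries by number, differently numbered libraries were not compared, and the source of this likeness was not tested. Pairs with dorsal midbrain or alar plate had r from -0.175 to 0.405 and do not pair throughout. The main fit takes no account of replicate number, and the replicate block does. List symbols were matched through RefSeq synonyms.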

Additional observations from a re-analysis of the deposited data

How the results depend on the processing

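With 3 libraries per region and 5 to 32 reads behind an adaptor value, calls are near the threshold. Of the 1317 alternative values of single genes, 1229 kept their side of the threshold, 52 lost and 36 gained a call, and no called value reversed. Most of these values were uncalled in the main fit, and only called values can lose a call. Pairs of regions that the main fit did not call are left out of the 1317. Such pairs gained calls too, such as Csf1r in dorsal midbrain against forebrain in 7 of 25 alternatives. Of the 1229, 1205 also kept their sign and 24, none of them called, changed it. The share of all genes called moved with the setting as well and stands in brackets after the members' counts. The F test called 2 members (33.7%), 1 with a pseudocount of 0.1 (32.8%) or quantile scaling (36.7%), 5 without the 3 libraries apart (70.7%), and 1 to 5 with a library left out (17.2% to 56.7%). For ventral midbrain the count was 0 (10.6%), 1 with median-ratio scaling (10.6%), with the length trend subtracted (14.1%) or with voom (10.7%), 2 without the 3 libraries (33.5%), and 0 to 2 with a library left out (5.05% to 19.6%). For dorsal midbrain it was 1 (32.0%), 0 with the length trend subtracted (40.3%) or the other 12 libraries as a single group (18.6%), 3 without the 3 libraries (64.5%), and 0 to 4 with a library left out (8.3% to 53.3%). For forebrain it was 1 (2.92%), 0 with the length trend subtracted (4.71%), with voom (1.38%) or with the other 12 libraries as a single group (0.0%), 3 without the 3 libraries (43.7%), and 0 to 3 with a library left out (0.518% to 8.34%). Leaving out a library gave 0 to 1 for alar plate (2.83% to 12.9%) and 0 for hindbrain (2.32% to 14.6%). Over the pairs of regions the count of 5 (12.4%) was 2 with quantile scaling (13.3%) or voom (11.5%), 10 with the length trend subtracted (16.0%), 12 without the 3 libraries (37.3%), 15 with only the regions compared (14.9%), and 3 to 16 with a library left out (6.7% to 20.2%). The median share of the sum of squares between regions, 52.6%, was 45.3% with quantile scaling, 65.8% without the 3 libraries and 46.0% to 73.7% with a library left out. The cause of these shifts was not tested. A filter at 5 RPKM left no member.

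The Cx3cr1 F test call was kept in 11 of 24 alternatives (adjusted p 0.0148 to 0.109). Quantile scaling and voom gave an adjusted p of 0.0533 and 0.0636 for Tyrobp in dorsal midbrain against forebrain. Cx3cr1 in ventral midbrain against alar plate had 0.0583 with quantile scaling and 0.119 with only these regions in the fit. With the other 12 libraries as a single group, Fcer1g had an adjusted p of 0.112 for dorsal midbrain and 0.347 for forebrain, and voom gave 0.0674 for forebrain. Fcer1g in dorsal midbrain against hindbrain had 0.179 with the length trend subtracted and 0.0638 with voom. In ventral midbrain against forebrain it had 0.0671 with quantile scaling, 0.0886 with the length trend subtracted and 0.0579 with voom. With replicate number as a block, Fcer1g in ventral midbrain against forebrain lost its call (adjusted p 0.0508) and Csf1r in dorsal midbrain against forebrain gained one (0.042). The block changed no other call of a member.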

Other observations

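Several genes of phagocytosis and lysosomes were lower in forebrain. Of 26 genes listed for the phagolysosome and for activation, 10 were tested and 7 were called by the F test, beside 33.7% of all genes. In forebrain 5 were lower than in the mean of the other 4 regions and 0 were higher, with a median difference of -0.48, where limma called 2.3% of all genes lower. The list did not move as a whole: Fabp5, a fatty acid binding protein, averaged 176 RPKM in forebrain and 138 RPKM in hindbrain (F test adjusted p = 0.189), and Igf1, not tested, had its highest mean in forebrain, at 1.24 RPKM. Ctsd, a lysosomal protease that many cells make, had 58.9 ± 6.0 RPKM in forebrain, against 93.7 ± 2.2 in ventral midbrain, 61.3 ± 2.4 in dorsal midbrain, 67.0 ± 9.9 in alar plate and 85.7 ± 2.5 in hindbrain (SD, n = 3 each). It was lower in forebrain by -0.36 ± 0.08 (limma adjusted p = 0.0357) and higher in ventral midbrain by 0.47 ± 0.08 (adjusted p = 0.00203). Lgmn, an endosomal protease, was lower in forebrain by -0.47 ± 0.09 (adjusted p = 0.015), as were Lpl (-1.23, adjusted p = 0.0341) and Cd9 (-0.82, adjusted p = 0.0274). The genes of inflammatory activation on this list did not pass the filter: Il1b and Tnf averaged 0.00787 and 0.0062 RPKM, and Cst7, Itgax and Gpnmb, which rise in activated microglia of adult mice, 0.00498, 0.034 and 0.0107 RPKM.

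Neutrophil and mast cell genes, and lymphoid genes other than Lck (0.852 RPKM), gave little signal, and some genes listed for platelets and red cells gave more. Neutrophil and mast cell genes such as Elane, Fcer1a and Mcpt4 were listed at 0 in every library, and S100a8 averaged 0.0958 RPKM. The lymphoid genes Cd3g, Ms4a1, Ncr1 and Nkg7 were likewise listed at 0 throughout. Of the listed platelet genes, Ppbp, a platelet chemokine, averaged 1.76 RPKM in dorsal midbrain, against 0.222 to 0.742 RPKM in the other 4 regions. It was higher in dorsal midbrain by 0.93 (limma adjusted p = 0.00438). Such a gene can pass the filter through the region where it is high. Gp1bb, a platelet glycoprotein gene, averaged 27.8 RPKM over the 15 libraries and was lower in dorsal midbrain by -0.63 (limma adjusted p = 0.0105), opposite to Ppbp. The cells that the Gp1bb reads came from were not tested, so its level is no measure of platelets. Globin and other erythroid genes summed to 1310 to 1350 RPKM in ventral midbrain, 1550 to 2710 in dorsal midbrain, 1120 to 3280 in alar plate, 1280 to 1430 in forebrain and 1310 to 1580 in hindbrain. The limma F test called 0 of the 7 tested erythroid genes, with adjusted p from 0.172 to 0.557, beside 33.7% of all genes. Of 16 genes of cell death and engulfment cues, 15 were tested and 9 were called by the F test, beside 33.7% of all genes. Mfge8, a bridge between dying cells and phagocytes, was lower in forebrain (-0.79, limma adjusted p = 0.0168). The receptors Axl and Tyro3 were higher in dorsal midbrain (0.80 and 0.55, adjusted p = 0.00423 and 0.0123).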
